A study of Mus musculus with 16 samples.

Results

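The genes described here make, degrade and sense retinoic acid. Retinaldehyde dehydrogenases (Aldh1a1, Aldh1a2 and Aldh1a3) oxidise retinaldehyde to retinoic acid, cytochrome P450 hydroxylases (Cyp26a1, Cyp26b1 and Cyp26c1) inactivate it, and the nuclear receptors Rara, Rarb and Rarg bind it and regulate transcription from response elements in DNA. Retinoic acid made in one group of embryonic cells patterns its neighbours, and the balance between synthesis and breakdown sets where it acts. Polycomb repressive complex 2 (PRC2) deposits H3K27me3 at CpG-rich starts of many silent developmental genes, and Jarid2 is one of its cofactors in embryonic stem cells (ESC).

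The 9 genes were chosen by their role and stand among 22350 protein-coding genes of chromosomes 1-19 and X (GENCODE NCBIM37, which is mm9). The peaks assigned to them were all those of the Jarid2 and Jarid2-K116me2 lists that overlapped a gene or lay within 5 kb of it, 8 of 4992 peaks for Jarid2 and 8 of 4502 for Jarid2-K116me2. Both lists came from E14 mouse ESC grown in serum and LIF, immunoprecipitated (ChIP-seq) with an antibody against total Jarid2 or one against Jarid2 dimethylated at lysine K116, with 1 sample for each antibody and so no replicate error. The H3K27me3 peak lists came from Jarid2 -/- ESC, either alone (KO) or rescued with a bacterial artificial chromosome, integrated by a transposon, that expressed Jarid2 WT or the mutant K116A, in which this lysine is an alanine. Each of these lines was taken as ESC in serum with LIF and as embryoid bodies (EB) made in hanging drops and left for 8 days without LIF, with 2 independent samples in each of the 6 groups. All 12 of these samples carry the Jarid2 deletion, no list can check it, and the labels do not tell clones within a line apart. In such bulk samples, fewer cells with the mark and less mark in each cell cannot be told apart.

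The H3K27me3 lists differed widely in extent, from 1478 peaks over 2.31 Mb in ESC WT rescue replicate 1 to 14125 peaks over 55.0 Mb in EB KO replicate 2. The share of all genes with a peak within 5 kb ran from 3.86 to 34.5%. The study called its replicates 2 the samples of higher quality, and in each group replicate 2 had more peaks than replicate 1. Of 6 pluripotency genes used as markers of ESC, Nanog, Zfp42 and Dppa5a had no peak in any list, Pou5f1 and Tdgf1 had one in EB KO replicate 2, and Esrrb had one in both Jarid2 lists and in all 12 H3K27me3 lists.

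Jarid2 occupied the breakdown genes and most synthesis genes, and none of the receptor genes. A Jarid2 peak lay within 5 kb of 5 of the 9 genes, and the same 5 had a Jarid2-K116me2 peak. By role these were 2 of 3 synthesis genes (Aldh1a2 and Aldh1a3), 3 of 3 breakdown genes and 0 of 3 receptor genes. Over all genes, 18.1% had a Jarid2 peak and 16.0% a Jarid2-K116me2 peak at this distance.

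The sequences upstream of the starts show how different these genes are in the CpG dinucleotides at which PRC2 is commonly found. A few starts are printed from mm9 as the 250 bases before the annotated transcription start, 5′ to 3′ on the strand of the gene, with each CpG in capitals. They are Aldh1a2 (chr9:71063346-71063595, plus strand) and the inner start of Cyp26b1 (chr6:84538633-84538882, minus strand), which both lie in strong Jarid2 peaks, and Aldh1a1 (chr19:20676201-20676450, plus strand), which has none.
Aldh1a2: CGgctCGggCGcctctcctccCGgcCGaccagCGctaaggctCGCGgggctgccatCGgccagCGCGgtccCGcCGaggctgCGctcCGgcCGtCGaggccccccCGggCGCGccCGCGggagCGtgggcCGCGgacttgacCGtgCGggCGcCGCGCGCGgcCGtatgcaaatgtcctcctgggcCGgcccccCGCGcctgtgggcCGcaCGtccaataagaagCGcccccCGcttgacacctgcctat
Cyp26b1: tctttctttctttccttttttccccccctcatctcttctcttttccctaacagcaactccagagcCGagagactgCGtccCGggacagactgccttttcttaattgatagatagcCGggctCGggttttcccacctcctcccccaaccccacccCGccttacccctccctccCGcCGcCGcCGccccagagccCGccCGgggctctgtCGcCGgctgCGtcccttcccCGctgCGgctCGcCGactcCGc
Aldh1a1: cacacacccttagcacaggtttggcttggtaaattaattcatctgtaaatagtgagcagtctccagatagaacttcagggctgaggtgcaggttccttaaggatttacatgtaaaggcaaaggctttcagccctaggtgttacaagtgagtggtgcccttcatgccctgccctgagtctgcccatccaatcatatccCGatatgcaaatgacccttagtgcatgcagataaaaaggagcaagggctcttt
The Aldh1a2 sequence holds 40 CpGs, that of Cyp26b1 20, and that of Aldh1a1 1. The same window held 22 CpGs at the outer start of Aldh1a3, 20 at Cyp26a1 and 5 at Cyp26c1. Starts outside the Jarid2 peaks were not all poor in CpG. Among the receptor genes the window held 16 at the inner and 0 at the outer start of Rarb. It held 2 to 13 at the protein-coding starts of Rara and 10 to 16 at those of Rarg. The outer start of Cyp26b1 had 9.

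Retinoic acid receptors bind pairs of half-sites, and some genes of the pathway are known to be induced by retinoic acid itself. The half-site AGGTCA, its variant AGTTCA, the variant GGGTCA and the variant GGTTCA were searched on both strands as direct repeats. The repeats had 5 bases between them (DR5) or 2 bases (DR2). The search covered the member peaks and the 2 kb around each annotated protein-coding start of these genes, and no other starts. No DR2 was found there. The 250 bases upstream of Cyp26a1 (chr19:37772048-37772297, plus strand) and of the inner start of Rarb (chr14:17407987-17408236, minus strand) are printed because each holds a DR5, whose letters are in capitals.
Cyp26a1: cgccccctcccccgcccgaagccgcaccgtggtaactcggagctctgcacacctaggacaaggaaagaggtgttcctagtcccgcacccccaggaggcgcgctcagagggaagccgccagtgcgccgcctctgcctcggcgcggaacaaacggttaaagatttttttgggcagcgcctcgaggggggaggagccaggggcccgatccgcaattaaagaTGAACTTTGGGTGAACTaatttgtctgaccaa
Rarb: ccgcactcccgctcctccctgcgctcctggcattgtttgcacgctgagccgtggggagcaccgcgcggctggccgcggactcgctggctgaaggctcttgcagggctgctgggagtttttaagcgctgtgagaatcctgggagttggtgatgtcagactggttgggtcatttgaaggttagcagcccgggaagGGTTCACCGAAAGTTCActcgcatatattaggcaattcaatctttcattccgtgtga
The 4 DR5 matches of the whole search are printed on the strand on which they were found, with their half-sites in capitals. They lay at chr19:37772266-37772282 (minus strand, Cyp26a1 proximal), chr19:37770399-37770415 (plus strand, Cyp26a1 distal), chr14:17408027-17408043 (minus strand, Rarb) and chr11:98821322-98821338 (plus strand, Rara).
Cyp26a1 proximal: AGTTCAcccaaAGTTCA
Cyp26a1 distal: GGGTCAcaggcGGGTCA
Rarb: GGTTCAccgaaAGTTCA
Rara: AGTTCAgcaagAGTTCA
The far edge of the proximal Cyp26a1 match lay at -32 bp and that of the distal one at -1899 bp from the start of transcription, where negative is upstream. The Rarb match lay at -57 bp from the inner start, and the Rara match at -404 bp from one of the inner starts of that gene. A DR5 of these letters was present in 0.0582% of all 250-base upstream windows, in 0.582% of all 2-kb windows around gene 5′ ends and in 0.461% of the 2-kb windows around the midpoints of Jarid2 peaks. The proximal Cyp26a1 match was inside the Jarid2 and the Jarid2-K116me2 peak, the distal one was inside the Jarid2 peak only, and those of Rarb and Rara were in neither list. A match is a description of the letters and not evidence of a bound site.

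Among the synthesis genes, Aldh1a2, the main source of retinoic acid in the early embryo, carried one of the strongest peaks (gene at chr9:71063596-71144050, plus strand). Its Jarid2 peak (chr9:71062321-71066923) and its Jarid2-K116me2 peak (chr9:71062636-71066040) covered the start and ran into the first intron, and both had a score of 3100. The score is that of the peak caller MACS, which grows with enrichment and depth and piles up at 3100, a value reached by 15.1% of Jarid2 and 21.0% of Jarid2-K116me2 peaks. A score of 3100 therefore says only that a peak was among these highest ones.

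Aldh1a3, a dehydrogenase of the eye and nasal region (chr7:73535778-73572403, minus strand), had a Jarid2 peak of score 1978.61 (chr7:73570377-73573865) and a Jarid2-K116me2 peak of 2386.76 (chr7:73571396-73573572), both over its start. A second peak fell within 5 kb of its 3′ end but covered the starts of the neighbouring kinase gene Lrrk1, with scores of 849.79 and 1347.97. Aldh1a1, a dehydrogenase of the retina and of many adult stem cells (chr19:20676451-20717952, plus strand), was far from any peak, the nearest lying 828101 bp away for Jarid2 and 828417 bp for Jarid2-K116me2.

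All breakdown genes were bound, each in a different way. At Cyp26a1, itself a well-known retinoic acid target (chr19:37772298-37776018, plus strand), a peak of score 3100 in both lists covered the start, from 37770168 to 37775284 for Jarid2 and from 37770598 to 37774749 for Jarid2-K116me2. Cyp26c1 (chr19:37760071-37767888, plus strand) lies 4.409 kb upstream of Cyp26a1 on the same strand, so the windows of the neighbours share 5.591 kb. Its own start was not inside a peak. Its body held peaks of 1002.97 and 531.04 for Jarid2 and of 706 and 306.3 for Jarid2-K116me2, and a further peak over its 3′ end and the gap to Cyp26a1 scored 1745.06 and 1685.24.

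At Cyp26b1 (chr6:84521938-84543740, minus strand), which protects limb buds and germ cells from retinoic acid, the peak was very wide and lay inside the gene. It was 8466 bp wide for Jarid2 (chr6:84532175-84540640), at or above 95.8% of peak widths in that list, and 8134 bp wide for Jarid2-K116me2 (chr6:84532482-84540615), at or above 97.0%. Both had a score of 3100. The peak covered the inner start, whose sequence is printed above, and did not reach the outer start.

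**Figure D1:**
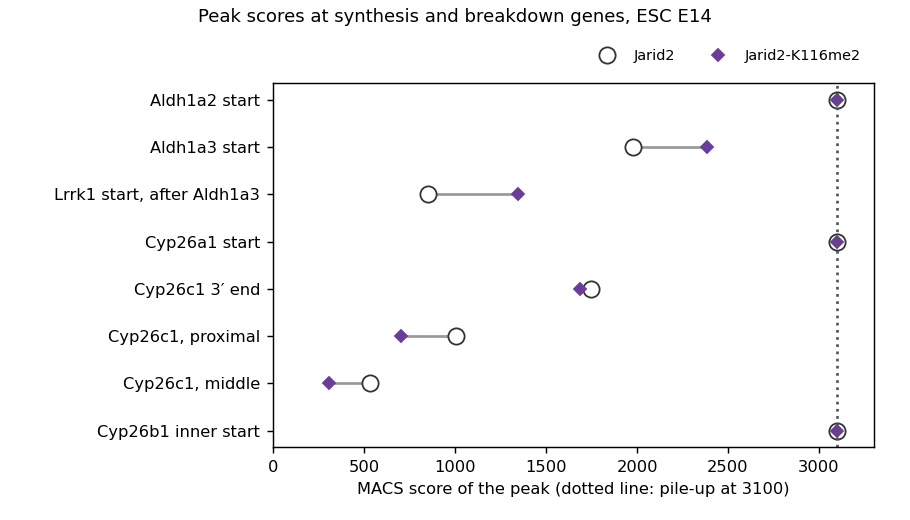
MACS score (horizontal axis, no unit) of each peak at the synthesis and breakdown genes in E14 ESC, with an open circle for Jarid2 and a diamond for Jarid2-K116me2, 1 sample each. Peaks at the starts of Aldh1a2, Cyp26a1 and Cyp26b1 sit on the dotted line at 3100 for both antibodies, and the largest gap between antibodies in favour of Jarid2-K116me2 is at the Lrrk1 start next to Aldh1a3.

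The receptor genes had no peak within 5 kb. Rarg (chr15:102065369-102087948, minus strand) was 89603 bp from the nearest Jarid2 peak, and Rarb (chr14:17263356-17651381, minus strand), whose annotated span is 388.026 kb, was 840297 bp from it. Rara (chr11:98789132-98836256, plus strand) was 6541 bp from a Jarid2 peak of score 353.82 and 6922 bp from a Jarid2-K116me2 peak of 309.98, which both covered the start of the neighbouring connexin gene Gjd3. With a distance of 10 kb, Rara would therefore count as bound in both lists and the total would be 6 of 9.

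CpG content did not divide the genes along the same line. The ratio of observed to expected CpG in the 2 kb around the start was 0.821 at Aldh1a2, at or above 93.5% of genes, 0.783 at the inner start of Cyp26b1, 0.636 at Cyp26a1, 0.570 at Aldh1a3 and 0.401 at Cyp26c1. The bound genes thus ranged from one of the highest values to below the median of all genes, 0.468. The lowest of them, Cyp26c1, was taken around a start that lay in no Jarid2 peak. Among the unbound genes the ratio was 0.170 at Aldh1a1. The highest for each receptor gene was 0.573 at the inner start of Rarb, and 0.595 and 0.651 at inner starts of Rara and Rarg. These were as high as at some bound starts. The other protein-coding starts were lower, from 0.203 to 0.547 for Rara and at 0.439 and 0.452 for Rarg. At the outer, unbound starts the ratio was 0.218 for Cyp26b1 and 0.0861 for Rarb.

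Methylated and total Jarid2 were found at the same places. The peaks of both lists merged into 7 regions, and each held both. The log2 ratio of the Jarid2-K116me2 to the Jarid2 score was 0.67 at the Lrrk1 start beside Aldh1a3 and 0.27 at the Aldh1a3 start. It was -0.51 in the proximal body of Cyp26c1. From the distal body of Cyp26c1 into the gap to Cyp26a1 (chr19:37763479-37769372) it was -0.05, by the highest score of each antibody. In the 3 regions where both scores sat in the pile-up at 3100 it was 0, which says little about the balance of the antibodies there. Of 2992 regions below that score in the genome, 94.0% had a ratio at or below that of the Lrrk1 start. At or below that of the proximal Cyp26c1 body were 16.7%. The median was 0 over the 7 regions and 0 over all 3896 common regions, both of which include ties at 3100. Below that score it was 0.11 over 4 regions and 0.03 over the 2992. With 1 sample for each antibody, these ratios have no test.

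The wider retinoid pathway was bound in part. Of 27 other genes for transport, storage, binding and signalling of retinoids, 10 (37.0%) had a Jarid2 peak and 9 (33.3%) a Jarid2-K116me2 peak, against 18.1% and 16.0% of all genes. Retinol-oxidising and -reducing enzymes counted 2 of 8, Rdh10, which makes retinaldehyde, with scores of 231.26 and 163.8, and Dhrs3, which reduces it back, with 619.48 and 455.88. Transport and storage counted 2 of 7, Lrat, which esterifies retinol for storage (1609.69 and 1909.06), and Rbp4, the retinol carrier of plasma (843.53 and 795.56).

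Of the 3 genes of cytoplasmic binding proteins, Crabp1 had scores of 1679.42 and 1832.12, and Crabp2 had a weak Jarid2 peak of 79.22 and none for Jarid2-K116me2, whose list had no peak below 91.86. Of 7 receptor partners and coregulators, 4 had peaks in both lists. These were Rxra (169.1 and 232.72) and Rxrg (487.38 and 320.63), which pair with retinoic acid receptors, the corepressor Nrip1 (686.15 and 684.67) and the coactivator Ncoa1 (290.18 and 137.38). The other dehydrogenases Aldh1a7 and Aldh8a1 had none.

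H3K27me3 was measured in separate samples and was not used to assign peaks. It was found at the same 5 genes and, in a few samples, at Rarb. Aldh1a1, Rara and Rarg had no H3K27me3 peak within 5 kb in any of the 12 samples. Every sample except ESC WT rescue replicate 1, where Aldh1a2 alone had a peak, had H3K27me3 at Aldh1a2, Aldh1a3 and all 3 breakdown genes. The number of genes with a peak was 4.50 ± 1.76 in ESC and 5.33 ± 0.516 in EB (SD, n = 6 each; difference 0.833, exact two-sided permutation test, p = 0.576).

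The length covered by H3K27me3 in the merged windows of the 9 genes, 734.065 kb in all, was 16.2 and 38.1 kb in ESC KO, 1.64 and 31.0 kb in ESC WT rescue, and 14.1 and 33.0 kb in ESC K116A rescue. In EB it was 25.0 and 35.8 kb in KO, 26.1 and 33.8 kb in WT rescue, and 44.6 and 55.0 kb in K116A rescue (replicates 1 and 2). The stages overlapped, and in unscaled kb the EB K116A rescue samples stood above all others. As a share of all covered length in the sample, the windows held 0.192 and 0.148% in EB K116A rescue (replicates 1 and 2). By this share ESC KO replicate 1 was above both, at 0.202%. EB WT rescue replicate 2 was above EB K116A rescue replicate 2, and the remaining samples were below both.

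Covered length averaged 22.3 ± 13.9 kb in ESC and 36.7 ± 11.4 kb in EB (SD, n = 6 each), a difference of 14.3 kb that did not pass the exact two-sided permutation test (p = 0.0823, with 0.00216 the smallest that the design allows). The genome covered ran from 2.31 to 29.2 Mb in ESC and from 19.6 to 55.0 Mb in EB, and with covered length scaled by the total of the sample the difference turned to -2.05 kb (32.5 ± 9.94 kb in ESC and 30.5 ± 11.7 kb in EB, exact permutation p = 0.818). Without ESC KO replicate 2 the unscaled difference was 17.5 kb (exact permutation p = 0.0433).

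**Figure D2:**
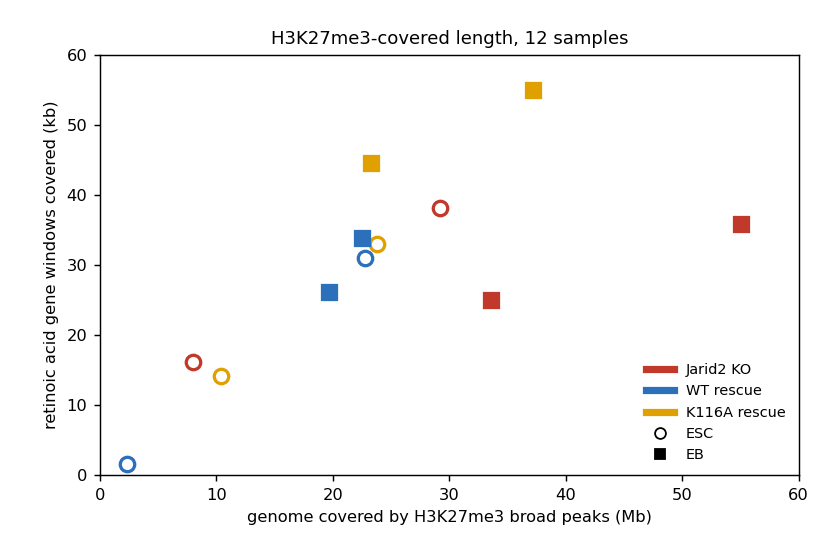
Length of the retinoic acid gene windows covered by H3K27me3 (vertical axis, kb) against the genome covered (horizontal axis, Mb) in the 12 samples, coloured by line, with open circles for ESC and squares for EB. The EB K116A rescue samples lie at 44.6 and 55.0 kb, with 23.2 and 37.2 Mb of the genome covered. EB KO replicate 2, with the most genome covered (55.0 Mb), lies at 35.8 kb.

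Changes at single genes were tested by limma on log2(covered kb + 1) of each gene window, over 8069 genes with H3K27me3 in at least 2 samples. Of the 9 genes, 6 entered this test, and Aldh1a1, Rara and Rarg did not. From ESC to EB, 16.7% of genes passed at an adjusted p of 0.05, 1265 higher and 81 lower, and the median over all genes was 0.51. With scaled lengths the split was 925 to 323 and the median 0.21.

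None of the 6 genes passed in EB against ESC by limma (adjusted p of at least 0.0930), 3 of them had an unadjusted p under 0.05, and 2920 of all genes did. Those 3 were Cyp26b1, Aldh1a2 and Aldh1a3, and their changes were largest. Cyp26b1 was covered over 6.13 and 9.46 kb in ESC KO, 0 and 9.73 kb in ESC WT rescue and 3.15 and 8.90 kb in ESC K116A rescue. In EB it was covered over 10.6 and 14.2 kb in KO, 9.34 and 11.5 kb in WT rescue and 12.8 and 16.6 kb in K116A rescue. The ranges touched, with the highest ESC sample above the lowest EB sample (log2 change 1.23, SE 0.49, limma adjusted p = 0.093).

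Aldh1a2 was covered over 5.10 and 9.58 kb in ESC KO, 1.64 and 6.22 kb in ESC WT rescue and 4.43 and 7.98 kb in ESC K116A rescue. In EB it was covered over 7.95 and 13.2 kb in KO, 7.39 and 9.53 kb in WT rescue and 9.05 and 12.1 kb in K116A rescue. The stages overlapped here too (log2 change 0.77, SE 0.31, limma adjusted p = 0.0974). Aldh1a3 ran from 0 to 5.88 kb with a median of 2.53 kb in ESC and from 2.57 to 6.77 kb with a median of 5.21 kb in EB (log2 change 1.00, SE 0.46, limma adjusted p = 0.134).

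H3K27me3 lay mostly, but not only, over the starts bound by Jarid2. The Aldh1a2 start and the inner start of Cyp26b1 were inside an H3K27me3 peak in 5 of 6 ESC and 6 of 6 EB samples, the Aldh1a3 start in 3 and 6, and the Cyp26a1 start in 4 and 4. The outer Cyp26b1 start was in a peak in 0 of the 12 samples. The Cyp26c1 start, in no Jarid2 peak, was covered in 2 ESC samples and no EB sample, and the unbound inner Rarb start in 1 EB sample.

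**Figure D3:**
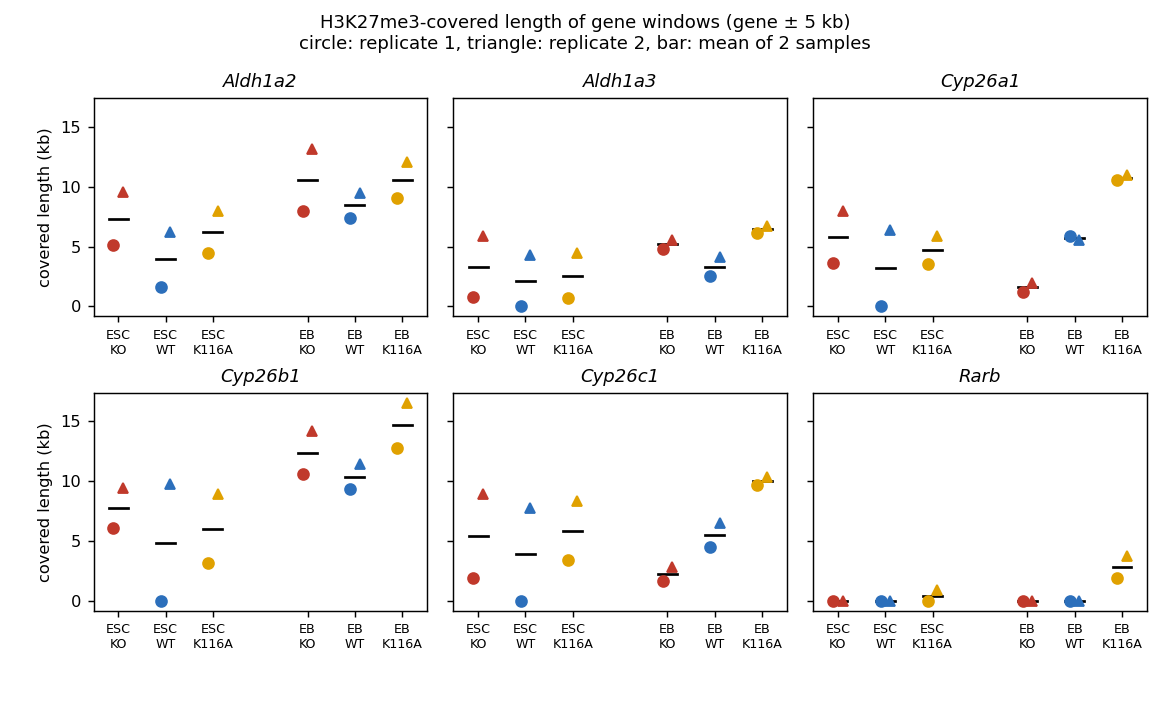
H3K27me3-covered length (vertical axis, kb) of the window of each gene with H3K27me3 (gene with 5 kb on either side) in each of the 12 samples, circles for replicate 1, triangles for replicate 2 and bars for the mean of 2 samples. Aldh1a2 and Cyp26b1 are covered in all EB samples, Cyp26a1 and Cyp26c1 are lowest among EB samples in KO, and Rarb is above 0 only in K116A rescue samples.

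In EB, Cyp26a1 had the largest difference between KO and either rescue among the 6 genes tested. Its window was covered over 3.60 and 8.00 kb in ESC KO, 0 and 6.39 kb in ESC WT rescue and 3.55 and 5.86 kb in ESC K116A rescue. In EB it was covered over 1.23 and 1.98 kb in KO, 5.91 and 5.59 kb in WT rescue and 10.6 and 11.0 kb in K116A rescue. The EB samples of each line were close to each other and the lines did not overlap, in the order KO, WT rescue, K116A rescue. In ESC the lines overlapped.

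None of these differences at Cyp26a1 passed in limma with all 12 samples. KO was lower than WT rescue in EB by a log2 change of -1.39 (SE 0.82, adjusted p = 0.362), and K116A rescue differed from WT rescue by 0.80 (SE 0.82, adjusted p = 1). The change from ESC to EB in KO minus that in WT rescue was -2.63 (SE 1.15, limma adjusted p = 0.328). K116A rescue and KO, a contrast added after the values were seen, differed in EB by 2.19 (SE 0.82, limma adjusted p = 0.131), and their changes from ESC to EB by 2.40 (SE 1.15, limma adjusted p = 0.405). KO and K116A rescue were both set against the same WT rescue samples, and the added contrasts use again the same KO and K116A rescue samples.

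What the EB KO samples lacked was the peak at the start. Of the 5117-bp Jarid2 region over the Cyp26a1 start, H3K27me3 covered 70.3 and 80.2% in ESC KO, 0 and 76.9% in ESC WT rescue and 54.3 and 77.7% in ESC K116A rescue. In EB it covered 0 and 0% in KO, 82.8 and 75.9% in WT rescue and 100 and 100% in K116A rescue. EB KO samples kept H3K27me3 upstream of this region, in Cyp26c1 and the gap to Cyp26a1 (such as chr19:37767558-37768787 in replicate 1). In EB K116A rescue a single peak of 14.678 and 15.24 kb ran without a break from Cyp26c1 to past the end of Cyp26a1.

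Full coverage in EB K116A rescue was common, and absence in EB KO was not. Of 1548 regions bound by both antibodies and covered over at least 50% in both EB WT rescue samples, 994 (64.2%) were covered over 100% in both EB K116A rescue samples, among them the 4 such regions at the genes described here. Of the 1548, 20 (1.29%) had no H3K27me3 in both EB KO samples, and 1 of these was the Cyp26a1 start. The starts of Aldh1a2 and Aldh1a3 were covered over 100% in both EB KO samples, and the Cyp26b1 region over 95.9 and 100%.

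The proximal DR5 at the Cyp26a1 start was inside H3K27me3 peaks in 8 of the 12 samples. It was outside them in both EB KO samples, in ESC WT rescue replicate 1 and in ESC K116A rescue replicate 1. The distal DR5 was covered in the EB K116A rescue samples and in no other.

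**Figure D4:**
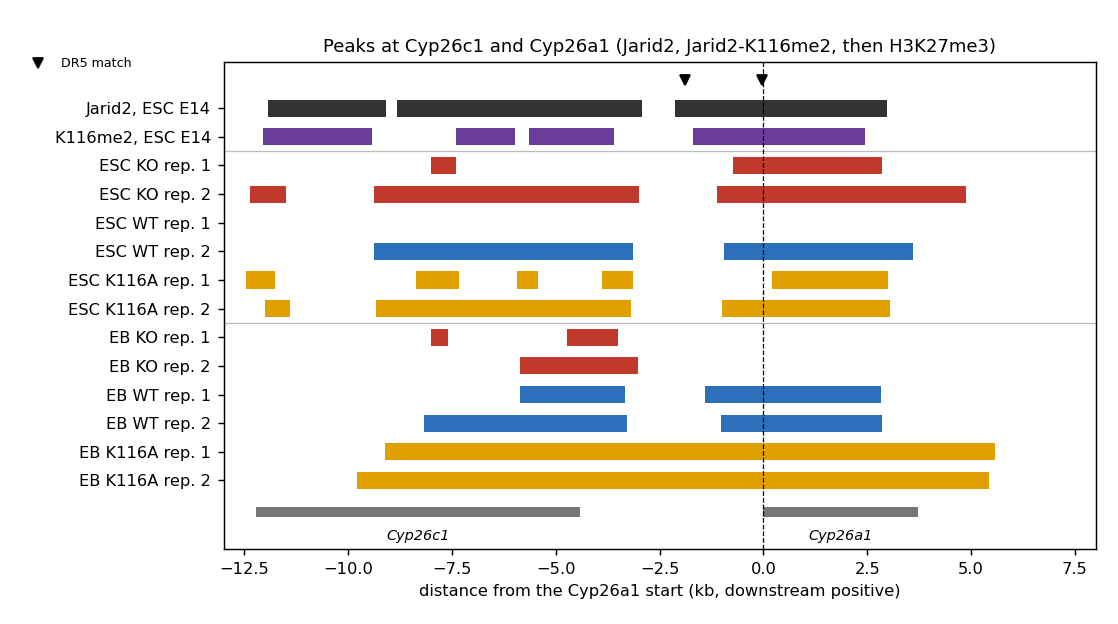
Peaks around Cyp26a1 and Cyp26c1, as bars, in both Jarid2 lists and in the 12 H3K27me3 lists (rows), by distance from the Cyp26a1 start (horizontal axis, kb), with DR5 matches as triangles and the genes drawn to scale. EB KO samples have no bar over the start, and both EB K116A rescue samples have a bar of over 14 kb through it.

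Cyp26c1, which shares part of its window with Cyp26a1, had the same order in EB. It was covered over 1.63 and 2.84 kb in EB KO, 4.51 and 6.50 kb in EB WT rescue and 9.70 and 10.4 kb in EB K116A rescue. In ESC the values were 1.93 and 8.93 kb in KO, 0 and 7.77 kb in WT rescue and 3.38 and 8.34 kb in K116A rescue. The EB lines did not overlap, but KO against WT rescue (log2 change -1.02, SE 0.99) had a limma adjusted p of 0.654.

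For all 6 genes tested, the line contrasts by limma stood as follows. KO against WT rescue in EB was passed by 15.5% of all genes and by 0 of the 6. Of the 1249 genes called, 1228 were higher in KO, and the median over all genes was 0.55. With scaled lengths 902 of 977 called genes were higher in KO, and the median was 0. In ESC, KO against WT rescue and K116A rescue against WT rescue were each passed by 0% of genes. At an unadjusted p under 0.05 they had 34 and 51 genes in limma, and 0 of the 6. Without ESC WT rescue replicate 2, which leaves the sparse replicate 1 alone, 577 and 585 genes passed by limma, 2 of the 6 among them in each. These shares rested on few samples, and without EB KO replicate 2 no gene passed for KO against WT rescue in EB by limma, with 800 at an unadjusted p under 0.05. The change from ESC to EB differed between KO and WT rescue for 4.61% of genes and 0 of the 6, between K116A rescue and WT rescue for 0.0868% and 0 of the 6, and between K116A rescue and KO, as an added contrast, for 4.65% and 0 of the 6.

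The single call was at a receptor gene. K116A rescue against WT rescue in EB was passed by 1.65% of genes and by 1 of the 6, Rarb, the receptor gene that retinoic acid itself induces. H3K27me3 covered 1.87 and 3.76 kb of the Rarb window in EB K116A rescue and 0.884 kb in ESC K116A rescue replicate 2, and 0 kb in each of the other 9 samples. Rarb was higher in EB K116A rescue by a log2 change of 1.89 (SE 0.35, limma adjusted p = 0.0473). It entered the test only through these K116A rescue samples, so that a difference was built in, and since WT rescue is at 0 the size of the change depends on the added 1 kb.

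The Rarb call was narrow. It was lost when any 1 of the 12 samples was left out (adjusted p from 0.0547 to 0.345, the highest without EB K116A rescue replicate 2), and adjusted p ran from 0.00984 to 0.115 over 6 other settings. Both EB KO samples were also at 0 kb, so a difference from KO was built in too, and a pass there is not further support. Against KO in EB, in the added contrast that 14.2% of genes passed, Rarb was the single gene of the 6 to pass (log2 change 1.89, SE 0.35, limma adjusted p = 0.0108). That call was lost without EB KO replicate 1, EB KO replicate 2 or EB K116A rescue replicate 2.

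The Rarb peaks lay around the inner start of Rarb at position 17407986, far from the 5′ end of the annotated gene. In EB K116A rescue replicate 1 they flanked the start (chr14:17406506-17407425 and chr14:17408978-17409925), and in replicate 2 a single peak covered it (chr14:17406360-17410117). The DR5 printed above was inside this last peak and in no other. In ESC K116A rescue replicate 2 a peak lay upstream of the start (chr14:17409045-17409928).

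**Figure D5:**
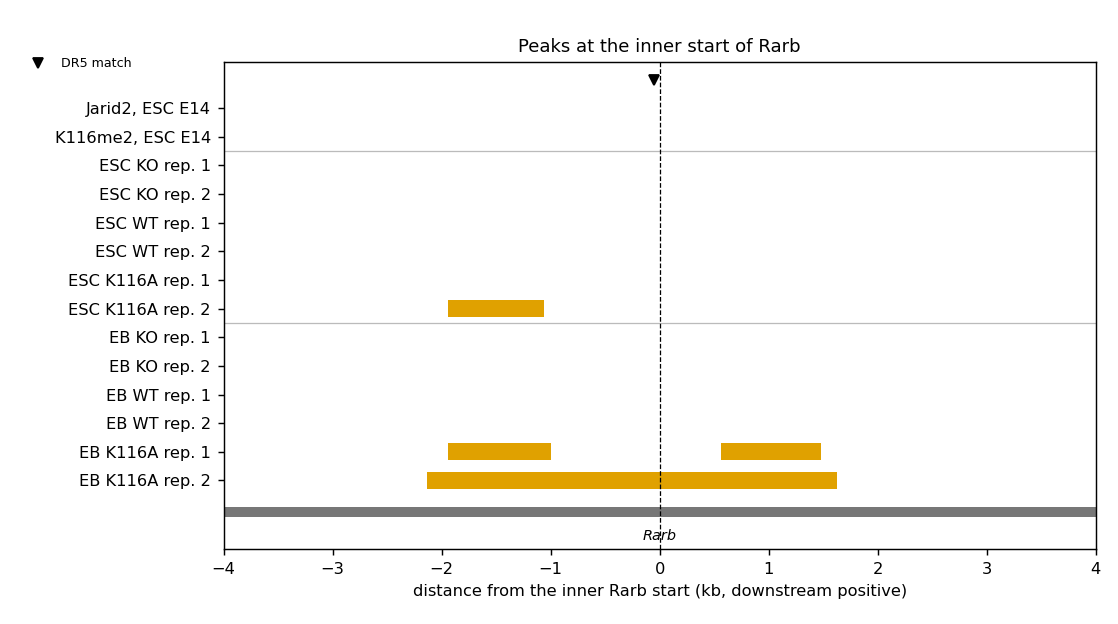
Peaks around the inner Rarb start, as bars, in both Jarid2 lists and in the 12 H3K27me3 lists (rows), by distance from that start (horizontal axis, kb), with the DR5 match as a triangle. Bars are present in 3 K116A rescue samples and in no Jarid2 list, and 1 of them covers the start.

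Among the 27 other retinoid genes, 14 entered the limma test. From ESC to EB 1 of the 14 passed, where 16.7% of all genes did. For KO against WT rescue in EB 1 passed, where 15.5% of all genes did. In these contrasts the calls were therefore no more frequent than over all genes, and from ESC to EB 1265 of 1346 called genes rose. Rdh5, a retinol dehydrogenase of the eye, rose from ESC to EB, with 0 to 0.910 kb in ESC and 1.09 to 3.22 kb in EB and no overlap (log2 change 1.17, SE 0.28, limma adjusted p = 0.0134). Bco2, which cleaves carotenoids, rose in EB KO, with 4.82 and 5.81 kb against 0 and 0 kb in EB WT rescue and 0 and 0.433 kb in EB K116A rescue (2.65 against WT rescue, SE 0.49, limma adjusted p = 0.00957). The Bco2 call against WT rescue was lost without EB KO replicate 1 or 2 or EB WT rescue replicate 1 or 2, when 0 of the 27 passed, and also with the score floor and in windows at the 5′ end. Dhrs9, a retinol dehydrogenase, had 2.87 and 5.87 kb in EB K116A rescue and 0 kb in the other 10 samples. It entered the test only through these 2 samples and so had to differ, and its limma calls are not given as support. Of the 14, Dhrs9 alone passed for K116A rescue against WT rescue in EB, where 1.65% of all genes did.

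The added contrast of K116A rescue and KO in EB was passed by 14.2% of all genes and 3 of the 14, Dhrs9 among them. Bco2 was lower in K116A rescue (log2 change -2.39, SE 0.49, limma adjusted p = 0.0154). This call too was lost with the score floor and in windows at the 5′ end. No Jarid2 peak lay within 5 kb of Rdh5, Bco2 or Dhrs9 in ESC.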

How the data were processed

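ChIP-seq of Jarid2 and Jarid2-K116me2 (1 sample each) and of H3K27me3 (12 samples, 2 per group) was analysed from the peak lists of each sample. Per the labels and the submitters' processing notes, reads were mapped to mm9 with Bowtie2 2.1.0, peaks of Jarid2 were called with MACS 1.4.2 against the input and broad peaks of H3K27me3 with MACS2 2.0.10, and HOMER 3.17 is also named. The deposited lists hold a position and the score the authors' peak caller gave each peak, not scaled for depth. The statistic behind the broad peak score is not given in the sources used here. The study states the reads of each library, by which ESC WT rescue replicate 1, the list with the fewest peaks, was the deepest ESC library. The lists hold no reads per peak, and lengths were not scaled by library reads. The 2 inputs had no list and were not used.

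Overlaps of at least 1 bp were taken between peaks and genes with 5 kb on either side. Peaks of both antibodies were merged where they overlapped, and a region took the highest score of each. H3K27me3 was measured as kb covered by broad peaks. Single values per sample were compared by an exact two-sided permutation test over samples. All genes covered in at least 2 of 12 samples were tested with limma 3.58.1 (R 4.3.3) on log2(covered kb + 1), with stage and line as additive terms for EB against ESC and with 6 group means for the line contrasts, and Benjamini-Hochberg adjustment over all genes tested. Changes are on that scale, which understates changes of short lengths. Other steps ran in Python 3.11.15 with scipy 1.17.1, pandas 2.3.3, numpy 2.4.6 and, for figures, matplotlib 3.10.9. The code was tested on simulated data. For EB against ESC, limma recovered 32 of 100 genes changed by a log2 of 1 and 62 of 100 changed by 2. A gene that did not pass may therefore still differ. Alternatives were other distances, pseudocounts of 0.2 and 5 kb, no filter, scaled lengths, windows at 5′ ends, a score floor, a replicate block and leaving out samples.

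The genes, the list of 27 other retinoid genes and the tests were chosen with earlier results of these data known. All 9 genes are named, as are genes of the 27 with a Jarid2 peak or a limma call, and neighbours whose start lies in a peak of the 9 genes. A single result among the other retinoid genes is not reported here. The main tests did not pair samples by replicate number. Across genes, the correlations of same-numbered deviations ran from -0.127 to 0.594 over 15 pairs of groups. A correlation takes out a shift common to all genes, so it cannot exclude an effect of replicate number on the extent of the lists.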

Additional observations from a re-analysis of the deposited data

Results flagged for a closer look

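Among 16 groups of 6 samples checked for a value far from the others, 2 values stood out. The chance rate of the rule, about 1 in 20 groups, is for continuous values. It does not apply to these 2, of which 1 is a small count and 1 the only value above 0 in its group. In ESC WT rescue replicate 1, the list with the fewest peaks, 1 of the 9 genes had an H3K27me3 peak, against 5 to 6 in the other ESC samples. In ESC K116A rescue replicate 2, H3K27me3 covered 0.884 kb at Rarb, against 0 kb in the other 5 ESC samples.

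From ESC to EB, the mean covered length at Cyp26a1 moved by 6.08 kb in K116A rescue and by -4.19 kb in KO, a difference of 10.276 kb between the lines. Every EB sample of K116A rescue was above every ESC sample of that line, and every EB sample of KO was below every ESC sample of KO. The test of the difference itself, chosen after these values were seen, did not pass (log2 difference 2.40, SE 1.15, limma adjusted p = 0.405).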

How the results depend on the processing

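Of 85 values from other settings, 76 were counted as unchanged, and so were 114 of 136 values with samples left out. For the permutation tests this meant the same direction and the same side of the threshold. Counts of genes were unchanged if equal or within a set factor of each other, and the median score ratio if it moved by less than 0.1. The median log2 score ratio of Jarid2-K116me2 to Jarid2 was 0.11 over the 4 regions below the score of 3100. The difference in covered length between EB and ESC turned to -2.05 kb with scaled lengths, was 17.5 kb without ESC KO replicate 2, and ranged from 7.48 kb (without replicates 1) to 21.2 kb (without replicates 2). The difference in genes with a peak ranged from 0 to 1.67 with samples left out.

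The 1 gene of the 9 called for K116A rescue against WT rescue in EB became 0 with a pseudocount of 5 kb, with no filter (where most variances were 0 and the limma estimate is unreliable) and in windows at the 5′ end, which leave out the inner Rarb start, and 0 with any sample left out. K116A rescue against KO in EB gave 0 in windows at the 5′ end and 0 to 2 with samples left out. With the score floor, chosen after seeing the data since the lists hold no q-value for the planned FDR of 1% (not run), the EB-ESC change of K116A rescue against KO gave 1. With samples left out, 0 to 2 genes were called for EB against ESC and for KO and for K116A rescue against WT rescue in ESC, and 0 to 1 for the change of KO against WT rescue. The counts above 0 came without ESC WT rescue replicate 2, which leaves the sparse replicate 1 alone in its group (2 genes, with Cyp26a1 the 1 for the change of KO). The other contrasts gave 0 throughout.

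Over all genes, calls for K116A rescue against WT rescue in EB numbered 133, and 77 to 258 under other settings and 2 to 104 with a sample left out. EB against ESC had 1346 calls, then 423 to 2545 and 707 to 2227. KO against WT rescue in EB had 1249, then 757 to 1714 and 0 to 1299. K116A rescue against KO in EB had 1145, and 5 to 1171 with a sample left out, the lowest without EB KO replicate 2. The EB-ESC changes had 372 calls for KO against WT rescue (0 to 502 with a sample left out), 375 for K116A rescue against KO (0 to 299) and 7 for K116A rescue against WT rescue (4 to 72 under other settings, 0 to 43). The ESC contrasts had 0 (0 to 577 for KO, 0 to 585 for K116A rescue).

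With the replicate number as a block, the difference in covered length of 14.3 kb had an exact permutation p of 0.02, and EB against ESC called 3 of the 9 genes (Cyp26b1, Aldh1a3 and Aldh1a2). The block changed no other call of the 9 genes. No label ties a number to a shared batch, but replicate 2 had more peaks than replicate 1 in each group. The correlations of deviations cannot exclude such a common shift, so which of the fits is the better one was not settled. The uneven extent of the lists limits every comparison of covered length.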
